A study of Homo sapiens with 12 samples.

Results

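The genes described here are the receptors, binding proteins and adaptors of the insulin-like growth factor (IGF) axis, namely the receptors IGF1R and IGF2R, the adaptors IRS1 and GRB10, and the binding proteins IGFBP2 to IGFBP7. They were chosen by name, with earlier results of these data known. All 10 were mapped to Ensembl identifiers and found among the 59424 genes listed for both cell lines. RNA-seq was carried out on CWR22RV1 (CWR22Rv1 in the labels) and DU145 cells, which are established human prostate cancer cell lines. CWR22RV1 cells carried either a control shRNA (Lenti-shControl, here shControl) or a knockdown of GALNT7 (GALNT7 KD), and the shRNA sequence was not used here. DU145 cells carried either the Lenti-ORF control (OEControl in the labels, here OE control) or overexpressed GALNT7 (GALNT7 OE). GALNT7 is a glycosyltransferase that adds N-acetylgalactosamine to proteins. All 12 libraries came from stable lines made by lentiviral transduction, so that the controls had also been transduced. Each of the 4 groups had 3 libraries that the labels call biological replicates. Since all cultures of a group came from 1 cell line, the p-values measure the spread between these cultures only. Knockdown was studied in 1 cell line and overexpression in the other, so that the cell line and the direction of the GALNT7 change cannot be told apart.

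IGF1 and IGF2 are secreted growth factors that bind IGF1R, a receptor tyrosine kinase of the cell surface. The activated receptor recruits adaptors such as IRS1, which pass the signal to the PI3K, AKT and mTOR arm and to the RAS and MAPK arm. IGF2R has no kinase domain and carries IGF2 to lysosomes, and the IGFBPs are secreted proteins that hold the ligands in the extracellular space and can either block or prolong their action. In prostate cells the axis is known for its role in growth and survival.

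The recovered depth was 21141983 to 22264533 reads per library in shControl cells and 18364512 to 20429381 in GALNT7 KD cells. The DU145 libraries held 21628718 to 23288926 reads in OE control and 21703978 to 24356910 in GALNT7 OE cells. GALNT7 followed the labels in every library. Its normalised count (the reads on a gene divided by a size factor of the library) was 862, 1042 and 1093 in shControl cells and 481, 501 and 399.7 in GALNT7 KD cells, a log2 fold change of -1.11 (SE 0.129, limma adjusted p = 0.00512). In OE control cells it was 1051, 928 and 913, and in GALNT7 OE cells it was 1988, 2221 and 2334, a log2 fold change of 1.18 (SE 0.0863, limma adjusted p = 7.99e-05). The 4 epithelial markers were above a mean normalised count of 5 in all groups, whereas of 8 luminal prostate markers 8 passed this level in CWR22RV1 cells and 2 in DU145 cells. The summed level of 6 fibroblast markers was 296 to 368 in shControl and 715 to 799.5 in GALNT7 KD cells, mostly from LUM, and 305 to 431 in OE control and 73.0 to 165 in GALNT7 OE cells, mostly from COL1A1. The summed level of 4 leukocyte markers was 111 to 125 in shControl and 118 to 174 in GALNT7 KD cells, and 2588 to 2764 in OE control and 992 to 1124 in GALNT7 OE cells. It came mostly from the lysosomal gene CD68, while CD3E had no reads in any library and PTPRC was at 2.10 or below. The summed level of 3 endothelial markers was at most 3.87 in CWR22RV1 cells, 14.3 to 23.2 in OE control and 7.39 to 54.5 in GALNT7 OE cells. The part of these markers in the results on the IGF axis was not tested.

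The cell lines differed in which members they expressed. To set genes side by side, levels are given as RPKM, the reads of a gene scaled to its exon length in kilobases and to the depth of the library. The exon length merges all annotated exons of a gene, whichever transcripts the cells expressed. The order of genes within a group and the sums and shares of the binding proteins therefore depend on the annotation. The tables of the cell lines were scaled separately and no control spans both, so that differences between the lines are a description with no test. In these bulk libraries, fewer cells that express a gene and less of its RNA per cell cannot be told apart. In shControl cells IGFBP3 had the highest level of the members with a mean of 268, followed by IGFBP2 with 58.7. IGF2R (4.23) and IRS1 (3.72) came next and their ranges overlapped, as did those of IGF1R (2.52) and IGFBP5 (2.33), and GRB10 stood at 1.59. IGFBP6, IGFBP4 and IGFBP7 were at a mean of 0.08997 or below, with overlapping ranges.

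In GALNT7 KD cells IGFBP3 (345) and IGFBP2 (83.4) were again at the top of the order of levels. IGF1R followed at 6.24, above IGF2R (4.77) and IRS1 (4.14), and the 3 libraries of IGF1R did not overlap with those of IGF2R. IGFBP5 stood at 0.824, below GRB10 (1.93). The order in DU145 cells was a different one. In OE control cells IGFBP4 led with a mean level of 177, IGF2R followed with 20.7, and IGF1R (17.2) overlapped with IGFBP6 (16.2). IGFBP3 stood at 13.3, IRS1 (6.93) overlapped with GRB10 (5.73), and IGFBP2 stood at 0.352. In GALNT7 OE cells IGFBP4 stood at 71.4, and the neighbours IGFBP3 (17.2), IGF2R (15.1), IGFBP6 (13.6) and IGF1R (11.4) each overlapped with the next. GRB10 (5.26) overlapped with IRS1 (4.80), and IGFBP2 stood at 0.926. IGFBP5 was at a mean of 0.0117 or below in both DU145 groups and IGFBP7 had no reads there.

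**Figure D1:**
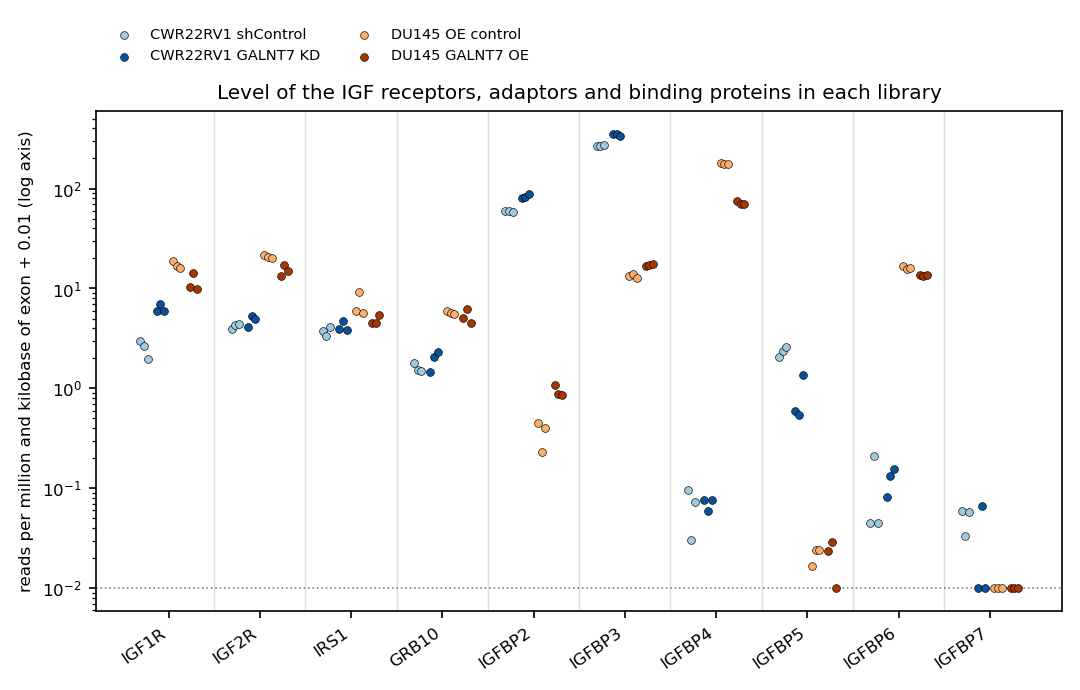
Level of each member in each of the 12 libraries, in RPKM (the exon length taken from the annotation) plus 0.01 on a log axis, with 1 point per library and colours for the 4 groups; points on the dotted line had no reads. IGFBP2 and IGFBP3 were higher in CWR22RV1 than in DU145 cells, IGFBP4 and IGFBP6 were higher in DU145 cells, and IGFBP7 was at or near 0 in both. In DU145 cells IGFBP3 (mean 13.3 in OE control and 17.2 in GALNT7 OE) lay near IGFBP6 (16.2 and 13.6).

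A member was tested where the 6 libraries of a comparison had a mean normalised count of 5 or more, and it was called where the limma adjusted p over all genes tested was under 0.05. Log2 fold changes are differences of log2(normalised count + 1), which understates the change of genes at low levels. In the knockdown 7 of 10 members were tested, and IGFBP4, IGFBP6 and IGFBP7 were not. Of these 7, 4 were called, where 9.06% of all genes tested were called. IGF1R, IGFBP2 and IGFBP3 were higher in GALNT7 KD cells (5.28% of all genes) and IGFBP5 was lower (3.79% of all genes). The groups did not overlap for the same 4 members, against 32.5% of all genes tested. The median log2 fold change of the tested members was 0.25, and that of all genes was -0.01.

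In the overexpression 8 of 10 members were tested, and IGFBP5 and IGFBP7 were not. Of these 8, 6 were called, where 43.5% of all genes tested were called. IGFBP2 and IGFBP3 were higher in GALNT7 OE cells (22.9% of all genes), and IGF1R, IGF2R, IGFBP4 and IGFBP6 were lower (20.5% of all genes). The groups did not overlap for 7 of the 8, against 55.3% of all genes tested. The median log2 fold change of the tested members was -0.33, and that of all genes was -0.01. Calls were frequent among all genes in this comparison, so that the count of members is read beside that share. Because the members were chosen with earlier results known, the counts of members called are a description in both comparisons.

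Since IGF1R, IGFBP2 and IGFBP3 were called in both comparisons and IGFBP4 had the lowest adjusted p, the promoters of these 4 genes are given to compare them, taken from RefSeq (GRCh38.p14), each from 250 bases before to 50 bases after a start site, 5′ to 3′ on the strand of the gene. They lie at chr15:98648289-98648588 (plus strand), chr2:216633170-216633469 (plus strand), chr7:45921223-45921522 (minus strand) and chr17:40443200-40443499 (plus strand). Capitals mark matches to the GC box GGGCGG or its reverse complement CCGCCC, and in IGFBP4 also to TATAAA, the letters of a TATA box.
IGF1R: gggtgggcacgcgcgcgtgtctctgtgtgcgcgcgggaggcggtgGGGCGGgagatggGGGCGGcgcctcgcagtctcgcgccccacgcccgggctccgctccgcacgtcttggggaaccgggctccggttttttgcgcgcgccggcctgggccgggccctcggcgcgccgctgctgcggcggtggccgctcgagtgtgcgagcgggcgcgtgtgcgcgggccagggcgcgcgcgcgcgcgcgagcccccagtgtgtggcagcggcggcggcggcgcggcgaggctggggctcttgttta
IGFBP2: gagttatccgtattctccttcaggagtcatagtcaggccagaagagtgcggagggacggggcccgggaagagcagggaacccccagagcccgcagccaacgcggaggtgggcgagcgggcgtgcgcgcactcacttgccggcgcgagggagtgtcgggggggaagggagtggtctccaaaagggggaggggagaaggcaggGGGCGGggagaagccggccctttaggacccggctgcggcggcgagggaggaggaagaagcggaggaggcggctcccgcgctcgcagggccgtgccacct
IGFBP3: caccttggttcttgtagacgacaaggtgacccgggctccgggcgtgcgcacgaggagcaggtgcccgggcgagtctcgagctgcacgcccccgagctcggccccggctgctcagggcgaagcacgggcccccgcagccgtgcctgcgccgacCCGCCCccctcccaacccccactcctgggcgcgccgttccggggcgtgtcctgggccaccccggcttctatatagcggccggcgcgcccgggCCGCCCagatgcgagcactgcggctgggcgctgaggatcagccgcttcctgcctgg
IGFBP4: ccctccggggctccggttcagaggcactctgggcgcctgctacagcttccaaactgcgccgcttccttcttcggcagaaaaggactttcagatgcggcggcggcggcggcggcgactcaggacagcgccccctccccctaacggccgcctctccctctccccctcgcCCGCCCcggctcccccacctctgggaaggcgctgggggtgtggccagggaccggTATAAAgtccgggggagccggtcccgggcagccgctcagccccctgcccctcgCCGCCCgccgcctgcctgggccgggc

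All of these windows are rich in G and C, and each holds at least 1 GC box. A RefSeq window was found for 9 of the 10 members (for IGFBP7 there was none), and the one nearest to the start of the principal transcript was used for genes with several. A GC box was present in 7 of these 9 windows, against 45.0% of 35116 windows of the same length, and absent from those of GRB10 and IGFBP5. The E-box CACGTG was present in those of IGF2R and IRS1 (7.26% of all windows), TATAAA on either strand in that of IGFBP4 only (11.5%), and the element GTAAACA or TGTTTAC, known as a site for FOXO factors, in that of IGFBP6 only (3.42%). Members with a GC box included ones that rose, that fell and that passed no test. GC content was 48.7% to 79.7% in the members' windows, and the median of all windows was 58.7%. For GRB10 the absence of a GC box depends on the window used. Its windows 10307 and 10886 bases from the principal start held 3 and 4 matches, and those at 329 and 27052 bases held 0. The GRB10 window at 27052 bases also held 2 matches to TATAAA on either strand. For IGFBP2 the window at 567 bases held 1 GC box and that at 26172 bases held 0. A match is a description of letters and not a site in use.

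**Figure D2:**
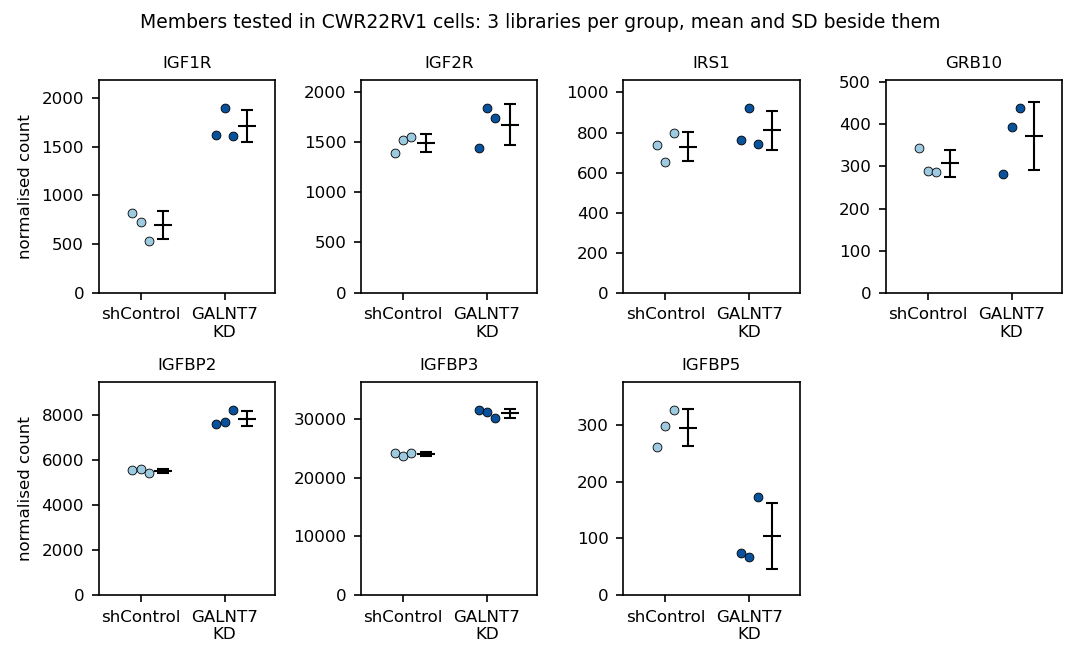
Normalised count of the 7 members tested in CWR22RV1 cells, with 1 point per library, and the mean and SD of the 3 libraries of each group beside them; every axis starts at 0. The shControl and GALNT7 KD points are apart for IGF1R, IGFBP2, IGFBP3 and IGFBP5 and overlap for IGF2R, IRS1 and GRB10.

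IGF1R lies on chromosome 15 (GRCh38, chr15:98648539-98964530, plus strand). Its normalised count was 818, 727 and 534 in shControl cells and 1618, 1899.8 and 1609 in GALNT7 KD cells. Every GALNT7 KD library lay above every shControl library, and the lowest shControl library was replicate 3. The mean was 693 ± 145 (SD, n = 3) in shControl and 1709 ± 165 (SD, n = 3) in GALNT7 KD cells, so that IGF1R was 2.47-fold higher after knockdown (log2 fold change 1.32, SE 0.163, limma adjusted p = 0.00668). The call was kept under all 17 alternatives run for this comparison, with log2 fold changes of 1.14 to 1.45.

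In DU145 cells the change of IGF1R had the opposite sign. The normalised count was 5844, 5136 and 4934 in OE control cells and 3253, 4453 and 3096 in GALNT7 OE cells. All 3 GALNT7 OE libraries were below the OE control libraries, and replicate 2 of GALNT7 OE was the nearest to them. The mean fell from 5305 ± 478 to 3601 ± 742 (SD, n = 3 each), and OE control cells were 1.47-fold above GALNT7 OE cells (log2 fold change -0.57, SE 0.142, limma adjusted p = 0.0157). The call was lost without OE control replicate 1 (log2 fold change -0.50, limma adjusted p = 0.0533) and without GALNT7 OE replicate 1 (log2 fold change -0.51, limma adjusted p = 0.0513).

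IGF2R (chr6:159969099-160113507, plus strand), the receptor that clears IGF2, was at 1385, 1522.5 and 1553 in shControl cells and 1441, 1840.1 and 1735 in GALNT7 KD cells. The groups overlapped, since replicate 1 of GALNT7 KD lay among the shControl libraries. The log2 fold change was 0.16 (SE 0.104, limma adjusted p = 0.371), which did not pass the threshold. In DU145 cells IGF2R was at 8591, 8089 and 7923 in OE control and 5279, 6896 and 6050.1 in GALNT7 OE cells, with no overlap. It fell to a mean of 6075 ± 809 from 8201 ± 348 (SD, n = 3 each), a log2 fold change of -0.44 (SE 0.0943, limma adjusted p = 0.00876).

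Of the receptors outside the members, INSR, the insulin receptor, which can pair with IGF1R, was at 812, 965 and 811 in shControl and 861, 686 and 1163 in GALNT7 KD cells, so that the groups overlapped (log2 fold change 0.04, SE 0.190, limma adjusted p = 0.930). In DU145 cells INSR was at 749, 889 and 782 in OE control and 495, 645 and 330.4 in GALNT7 OE cells, all lower (log2 fold change -0.77, SE 0.230, limma adjusted p = 0.0327). That call was lost without any 1 of the OE control libraries or GALNT7 OE replicate 1 (log2 fold changes of -0.69 to -0.82) and with eBayes without a trend (limma adjusted p = 0.0652), and without GALNT7 OE replicate 3 the log2 fold change was -0.51. INSRR, an orphan receptor of the same family, had at most 2.75 normalised counts in any library and was not tested.

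**Figure D3:**
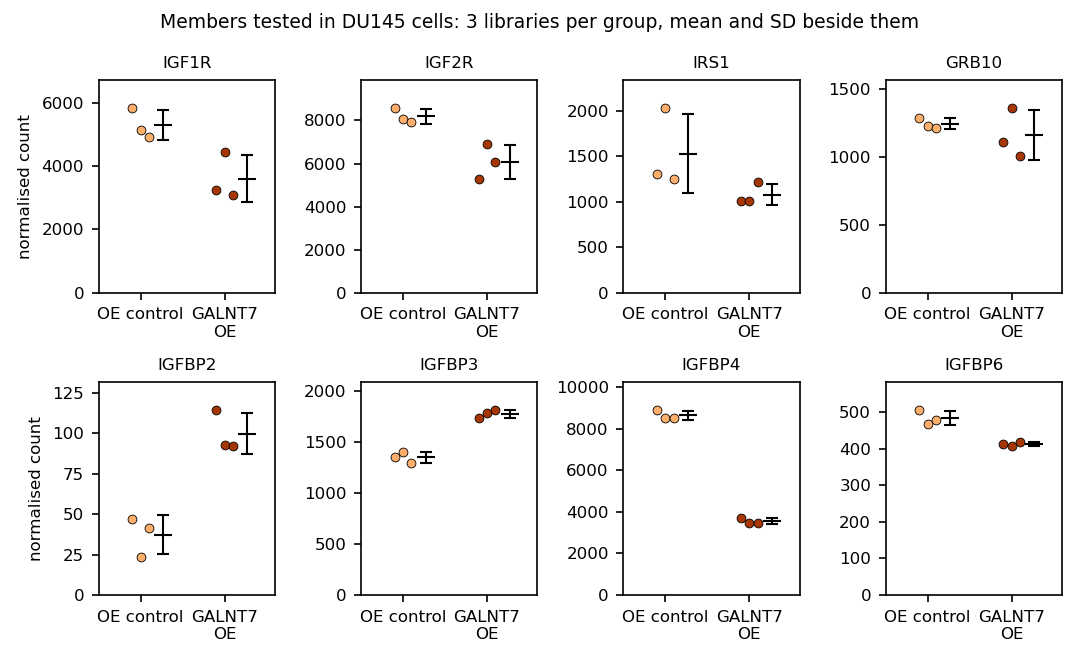
Normalised count of the 8 members tested in DU145 cells, with 1 point per library, and the mean and SD of the 3 libraries of each group beside them; every axis starts at 0. IGFBP4 is the member with the widest gap for its spread, and GRB10 is the one whose groups overlap.

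IGFBP3, the main carrier of IGFs in blood plasma, was the member with the highest level in CWR22RV1 cells (chr7:45912245-45921874, minus strand). Its normalised count was 24245, 23733 and 24332 in shControl cells and 31609.7, 31276 and 30172 in GALNT7 KD cells. The libraries of each group lay close together and the groups were well apart, at a mean of 24104 ± 324 against 31019 ± 752 (SD, n = 3 each). IGFBP3 was therefore 1.29-fold higher in GALNT7 KD cells (log2 fold change 0.36, SE 0.0290, limma adjusted p = 0.00153). In DU145 cells, where its level was lower, IGFBP3 was at 1355, 1401 and 1299 in OE control and 1737, 1785 and 1816 in GALNT7 OE cells. It was 1.32-fold higher there, again with no overlap (log2 fold change 0.40, SE 0.0551, limma adjusted p = 0.00133).

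IGFBP2, a binding protein with a preference for IGF2, rose in both comparisons too (chr2:216632828-216664436, plus strand). Its normalised count was 5549, 5587 and 5418 in shControl cells and 7585, 7667 and 8204 in GALNT7 KD cells. All GALNT7 KD libraries were higher, by 1.42-fold at the mean (log2 fold change 0.50, SE 0.0445, limma adjusted p = 0.00228). DU145 cells had little IGFBP2, with 46.8, 23.5 and 41.3 in OE control and 114, 92.4 and 92.3 in GALNT7 OE cells. The groups did not overlap, and the mean was 37.2 ± 12.2 against 99.7 ± 12.6 (SD, n = 3 each), a 2.68-fold difference (log2 fold change 1.45, SE 0.277, limma adjusted p = 0.00545). The calls of IGFBP2 and IGFBP3 were kept under every alternative run for either comparison.

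IGFBP4 (chr17:40443461-40457731, plus strand), which mostly restrains IGF action, had the strongest call among the members. In DU145 cells its normalised count was 8901, 8506 and 8506 in OE control and 3705, 3454 and 3473 in GALNT7 OE cells. The spread within each group was small beside the gap, with means of 8637 ± 228 and 3544 ± 139.9 (SD, n = 3 each). IGFBP4 was 2.44-fold lower in GALNT7 OE cells (log2 fold change -1.29, SE 0.0449, limma adjusted p = 4.51e-06), and log2 fold changes under the 16 alternatives were -1.38 to -1.26. In CWR22RV1 cells it was nearly absent, at 3.73, 0.884 and 2.75 in shControl and 2.90, 2.13 and 2.89 in GALNT7 KD cells, and it was not tested.

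IGFBP5, a binding protein of the extracellular matrix, is a neighbour of IGFBP2 on the opposite strand (chr2:216672105-216695525, minus strand). Its normalised count was 261, 299 and 327 in shControl cells and 73.5, 67.2 and 172 in GALNT7 KD cells. All GALNT7 KD libraries were lower, though replicate 3 was well above the others. The mean fell from 296 ± 32.9 to 104 ± 59.0 (SD, n = 3 each), and IGFBP5 was 2.83-fold lower in GALNT7 KD cells (log2 fold change -1.62, SE 0.351, limma adjusted p = 0.0369). This call was lost in 7 of 17 alternatives, which were eBayes without a trend (limma adjusted p = 0.0780), edgeR on the recovered reads (edgeR adjusted p = 0.0543), and the fits without any 1 of the shControl libraries or without GALNT7 KD replicate 1 or 2. The log2 fold changes of those 5 fits were -1.71, -1.61, -1.55, -1.44 and -1.38, with a highest limma adjusted p of 0.116. In the exons of IGFBP5, 4.63% of the bases overlapped with a gene on the other strand, AC007563.2, and whether the counting used the strand is not given in the sources used here. In DU145 cells IGFBP5 had at most 2.77 normalised counts in any library and was not tested.

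IGFBP6 (chr12:53097436-53102345, plus strand), which binds IGF2 far more tightly than IGF1, was at 506, 466 and 479.6 in OE control and 413, 408 and 417 in GALNT7 OE cells. The groups did not overlap, and the fold was the smallest among the members called, with OE control cells 1.17-fold above GALNT7 OE cells (log2 fold change -0.23, SE 0.0746, limma adjusted p = 0.0441). The call was lost in 9 of 16 alternatives, among them each of the 6 fits without 1 library, whose log2 fold changes were -0.25 to -0.20 with a highest limma adjusted p of 0.134. The fits with a replicate block, with no filter on low values and with DESeq2 on the recovered reads also lost it, whereas edgeR kept it. In CWR22RV1 cells IGFBP6 was at 0.933, 5.30 and 0.916 in shControl and 1.93, 3.20 and 3.85 in GALNT7 KD cells, and it was not tested.

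IGFBP7 (chr4:57030773-57110385, minus strand), a related protein with weak IGF binding, was not tested in either cell line. It had 0 reads among the 135424937 reads of the 6 DU145 libraries, which allows a level of up to 0.0222 RPM (reads scaled to depth but not to length) by the limit of 3 counts, for counting error only. In CWR22RV1 cells it was at 1.87, 0.884 and 1.83 in shControl and 0, 2.13 and 0 in GALNT7 KD cells. These values are at the level of single reads. The exons of IGFBP7 overlapped with IGFBP7-AS1 over 4.87% and with POLR2B over 13.99% of their bases, both on the other strand.

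Of the binding proteins outside the members, IGFBP1, a binding protein known from liver, was at 275, 294 and 276 in shControl and 278, 258 and 245 in GALNT7 KD cells (log2 fold change -0.11, SE 0.0984, limma adjusted p = 0.518). It had at most 1.02 normalised counts in any DU145 library. IGFBPL1, an IGFBP-like protein, was at 80.3, 108.8 and 84.2 in shControl and 71.5, 52.3 and 50.1 in GALNT7 KD cells, without overlap but past no threshold (log2 fold change -0.65, SE 0.210, limma adjusted p = 0.107). In DU145 cells IGFBPL1 rose from 429.5, 394 and 410.1 to 615, 589.6 and 616 (log2 fold change 0.56, SE 0.0741, limma adjusted p = 0.00107). IGFALS, a partner in the plasma complex of IGF and IGFBP3, had at most 5.60 normalised counts in any library and was not tested.

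The changes of single binding proteins added up to different totals in the cell lines. Summed over IGFBP1 to IGFBP7, the level was 338 ± 2.31 RPKM in shControl and 438 ± 4.14 in GALNT7 KD cells (SD, n = 3 each). IGFBP3 made up 79.3% of this sum in shControl and 78.9% in GALNT7 KD cells, so that its share stayed within the spread of 1.06 percentage points (SD) of the GALNT7 KD libraries while the sum was larger. In DU145 cells the sum was 207 ± 5.07 in OE control and 103 ± 3.05 in GALNT7 OE cells (SD, n = 3 each). The share of IGFBP4 went from 85.5% ± 0.0860 to 69.2% ± 0.989, that of IGFBP3 from 6.45% ± 0.285 to 16.7% ± 0.756 and that of IGFBP6 from 7.83% ± 0.154 to 13.2% ± 0.332 (SD, n = 3 each). The share of IGFBP6 was thus larger in GALNT7 OE cells although its own level was lower, since the sum itself was smaller. These sums and shares are descriptions with no test, and the sums do not overlap between the groups of either cell line.

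**Figure D4:**
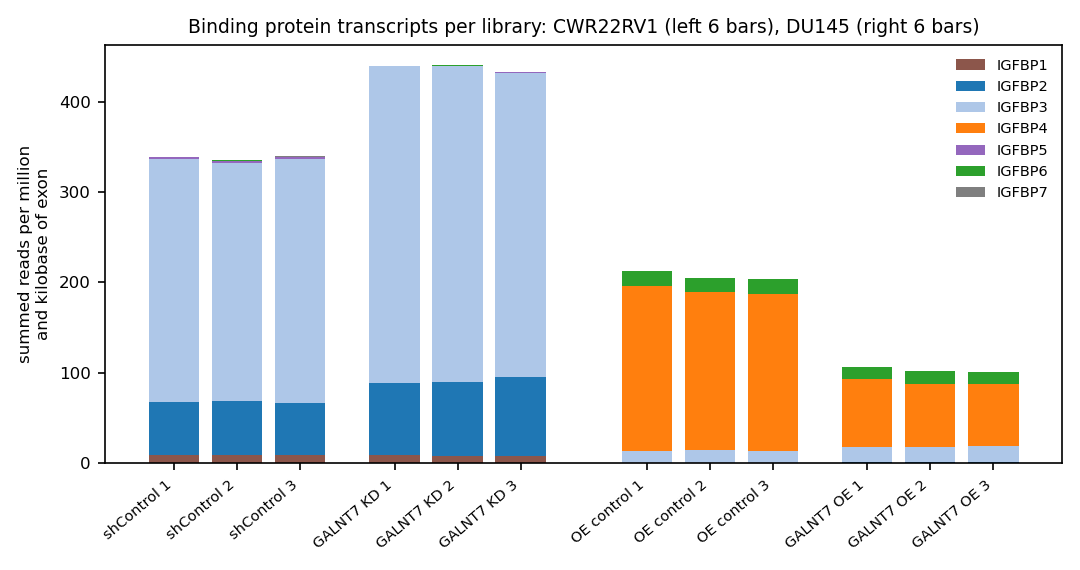
Level of IGFBP1 to IGFBP7 stacked for each library, in RPKM, with the 6 CWR22RV1 libraries on the left and the 6 DU145 libraries on the right. The bars reach 335 to 339 in shControl, 433 to 440.1 in GALNT7 KD, 203 to 213 in OE control and 101 to 107 in GALNT7 OE libraries, with IGFBP3 as the main part in CWR22RV1 cells and IGFBP4 in DU145 cells.

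IRS1 (chr2:226731317-226799759, minus strand), the adaptor that binds PI3K after phosphorylation by IGF1R, was at 738, 653 and 797 in shControl and 764, 924 and 745 in GALNT7 KD cells. The groups overlapped (log2 fold change 0.15, SE 0.117, limma adjusted p = 0.468). IRS1 in DU145 cells was at 1302, 2034 and 1254 in OE control and 1012, 1011 and 1216 in GALNT7 OE cells. All GALNT7 OE libraries were lower, but OE control replicate 2 stood far above the other control libraries. The log2 fold change was -0.47 (SE 0.190, limma adjusted p = 0.0852), and -0.25 without that library (limma adjusted p = 0.116). It passed the threshold with rescaling to the 75th percentile (limma adjusted p = 0.0469), with quantile normalisation (limma adjusted p = 0.0458) and with DESeq2 (DESeq2 adjusted p = 0.0277).

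GRB10 (chr7:50590063-50793462, minus strand), an adaptor that binds the activated receptors and mostly dampens their signal, was at 344, 290.0 and 287 in shControl and 282, 393 and 439 in GALNT7 KD cells (log2 fold change 0.25, SE 0.179, limma adjusted p = 0.421). GRB10 in DU145 cells was at 1291, 1229 and 1215 in OE control and 1113, 1364 and 1010.1 in GALNT7 OE cells (log2 fold change -0.11, SE 0.112, limma adjusted p = 0.464). The groups overlapped in both comparisons, and the spread was wider in the cells with altered GALNT7 than in the controls. GRB10 passed the threshold under no alternative run for either comparison.

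The rest of the pathway was taken from a list of 69 genes by role, of which 68 were matched. In the knockdown 63 of them were tested and 3 were called, 2 higher and 1 lower, with a median log2 fold change of -0.01, beside 9.06% called among all genes tested. In the overexpression 62 were tested and 38 were called, 18 higher and 20 lower, with a median log2 fold change of 0.05, beside 43.5% called among all genes tested. The counts of the single lists given next are read beside these shares, and no difference between the comparisons was tested. The genes named from these lists are the ligands, receptors and binding proteins whatever their result and, for each comparison, up to 6 others with the largest log2 fold change among called genes whose groups did not overlap and whose mean reached 50 normalised counts.

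Among the ligands, IGF1 was at 81.2, 34.5 and 79.7 in shControl and 222, 72.5 and 209.98 in GALNT7 KD cells, with replicate 2 the lowest of each group. The groups overlapped, and the log2 fold change of 1.29 (SE 0.518) did not pass (limma adjusted p = 0.173). It passed in the fit with a replicate block (limma adjusted p = 0.0284). IGF1 lies on chromosome 12, where the median log2 fold change of 922 genes in the knockdown was -0.28, and centring on that median gave 1.56 for IGF1. In DU145 cells IGF1 had at most 2.02 normalised counts in any library. IGF2 was low throughout, at 18.7, 7.07 and 6.41 in shControl and 4.83, 3.20 and 10.6 in GALNT7 KD cells (limma adjusted p = 0.506), and at 9.54, 0 and 5.04 in OE control and 21.0, 9.24 and 11.5 in GALNT7 OE cells (limma adjusted p = 0.141). INS, the insulin gene, had no reads in any library. The receptor and binding protein transcripts were thus measured in cells that had few or no reads of the ligands' own genes, except for IGF1 in CWR22RV1 cells.

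Proteases free IGFs from the binding proteins, and PAPPA, which cleaves IGFBP4, is held back by the stanniocalcins. In the knockdown 1 of the 4 tested genes of this list was called. STC1, a stanniocalcin, was at 1324, 1332 and 1461 in shControl and 5995, 6119.7 and 5789 in GALNT7 KD cells, and was 4.35-fold higher (log2 fold change 2.12, SE 0.0582, limma adjusted p = 2.76e-05). PAPPA had 0 reads among the 124092464 reads of the 6 CWR22RV1 libraries, which allows up to 0.0242 RPM by the limit of 3 counts.

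In DU145 cells 5 of the 6 genes of the protease list were called, 2 higher and 3 lower, where 43.5% of all genes were. PAPPA was at 38.2, 44.0 and 239 in OE control and 12.03, 9.24 and 14.7 in GALNT7 OE cells. All GALNT7 OE libraries were lower, and OE control replicate 3 was far above the other controls (log2 fold change -2.55, SE 0.681, limma adjusted p = 0.0213). Without that library the log2 fold change was -1.71 (limma adjusted p = 0.00914). Without GALNT7 OE replicate 1 (-2.57, limma adjusted p = 0.0541) or 2 (-2.39, limma adjusted p = 0.0634) the call was lost. PAPPA reached the mean of 50 set for named genes only through OE control replicate 3, since all other libraries were below that level. ADAM12, a protease that cleaves IGFBP3 and IGFBP5, was at 166, 64.4 and 93.7 in OE control and 235, 259 and 227 in GALNT7 OE cells (log2 fold change 1.25, SE 0.319, limma adjusted p = 0.0179). That call was lost without OE control replicate 3 (1.20, limma adjusted p = 0.0534) or GALNT7 OE replicate 2 (1.19, limma adjusted p = 0.0555). STC1, given here because it was named in the knockdown, fell from 889, 886 and 936 to 622, 663 and 719 (log2 fold change -0.44, SE 0.0766, limma adjusted p = 0.00371). The other stanniocalcin, STC2, moved the opposite way and rose from 846, 724 and 941 to 1533, 1234 and 1306 (log2 fold change 0.70, SE 0.122, limma adjusted p = 0.00367). STC2 is named outside the rule, after its values were seen, and in the knockdown its groups overlapped (log2 fold change -0.16, limma adjusted p = 0.506).

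Of the adaptors outside the members, 1 of 11 was called in the knockdown and 8 of 10 in the overexpression, 2 higher and 6 lower, beside 9.06% and 43.5% of all genes. IRS2, the close relative of IRS1, was at 1249.8, 1362 and 1239.7 in shControl and 965, 1036 and 991 in GALNT7 KD cells (log2 fold change -0.36, SE 0.0688, limma adjusted p = 0.0242). That call was lost in 6 of 17 alternatives, among them the fits without shControl replicate 1, 2 or 3 or GALNT7 KD replicate 1 or 3, with a highest limma adjusted p of 0.0926 and log2 fold changes of -0.39 to -0.32. In DU145 cells IRS2 was lower too, at 2298, 2378 and 2308 in OE control and 1212, 1201 and 1057 in GALNT7 OE cells (log2 fold change -1.01, SE 0.0683, limma adjusted p = 5.62e-05). SHC2, an adaptor towards RAS, fell from 238, 276 and 301 in OE control to 42.1, 41.6 and 29.4 in GALNT7 OE cells (log2 fold change -2.83, SE 0.188, limma adjusted p = 5.23e-05). GRB14, the relative of GRB10 that also dampens receptor signals, rose from 55.4, 51.1 and 28.2 to 159, 111 and 107 (log2 fold change 1.499, SE 0.298, limma adjusted p = 0.00638).

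Further along the pathway, none of the 19 genes of the PI3K, AKT and mTOR arm and none of the 10 matched genes of the RAS and MAPK arm was called by limma in the knockdown, where 9.06% of all genes were. At an adjusted p under 0.05 edgeR called 0 of either arm, and DESeq2 called 0 of the 19 and 2 of the 10. Of all 17906 genes tested edgeR called 1546 and DESeq2 2666, where limma called 1623. At an unadjusted p under 0.05 limma had 0 of the 19 and 5 of the 10. The share of all genes at that level is not given here, so that nothing is read from these 2 counts. In the overexpression 10 of the 19 (6 higher, 4 lower) and 3 of the 10 (all higher) were called, beside 43.5% of all genes. PIK3R3, a regulatory subunit of PI3K, rose from 369, 277 and 368 to 782, 551 and 777 (log2 fold change 1.05, SE 0.178, limma adjusted p = 0.00325). IGF2BP3, which binds IGF2 mRNA, rose from 212, 202 and 199 to 684, 719 and 554 and was the 1 gene of 3 called in its list (log2 fold change 1.66, SE 0.117, limma adjusted p = 6.75e-05).

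Of the 11 negative regulators of the receptors, 1 was called in the knockdown, beside 9.06% of all genes, and 9 in the overexpression, 3 higher and 6 lower, beside 43.5%. SOCS2, which limits growth hormone and IGF signals, was the one called in the knockdown and rose from 362, 285 and 311 to 925, 887 and 885 (log2 fold change 1.497, SE 0.105, limma adjusted p = 0.000947). That call was kept under all 17 alternatives, with log2 fold changes of 1.42 to 1.77. In DU145 cells SOCS2 rose from 1032, 963 and 882 to 1299.9, 1239 and 1292 (log2 fold change 0.42, SE 0.0743, limma adjusted p = 0.00406).

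**Figure D5:**
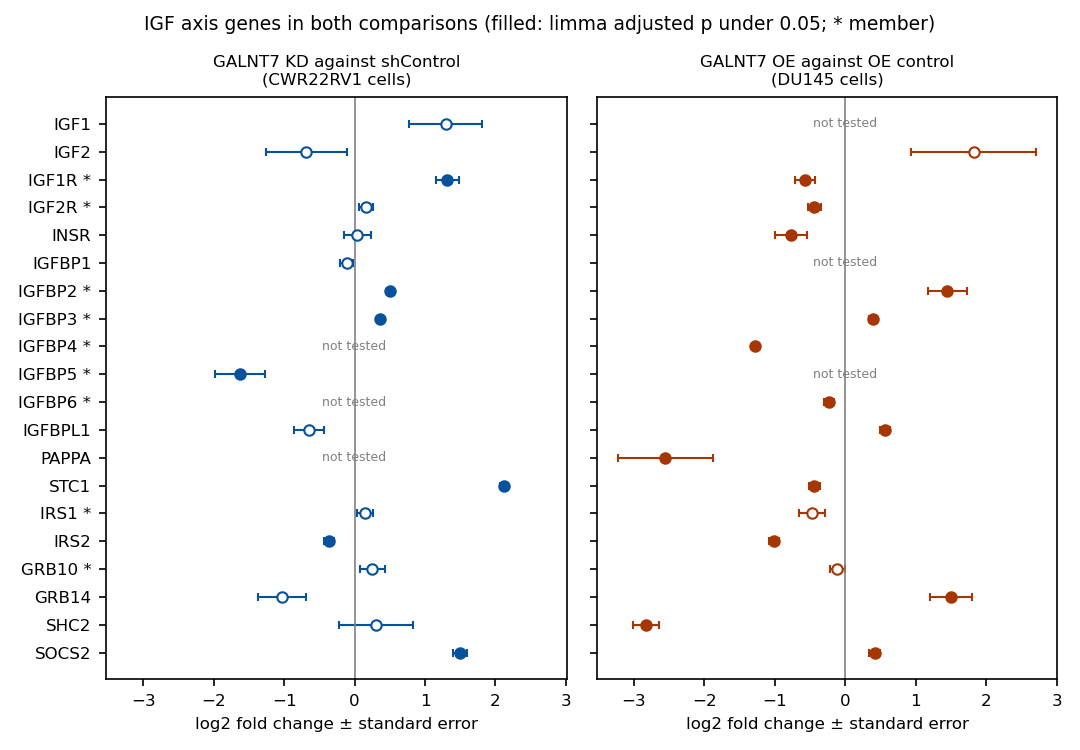
Log2 fold change ± standard error of the members (marked with an asterisk) and of other IGF axis genes, for GALNT7 KD against shControl in CWR22RV1 cells (left) and GALNT7 OE against OE control in DU145 cells (right); filled points passed a limma adjusted p of 0.05. IGF1R lies at 1.32 on the left and -0.57 on the right, whereas IGFBP2 and IGFBP3 lie above 0 on both sides.

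The comparisons share no libraries, and 6 members were tested in both. IGF1R, IGFBP2 and IGFBP3 were called in both, where 5.48% of the 16124 genes tested in both were. IGF1R was the member called in opposite directions, higher after knockdown and lower after overexpression, as were 1.58% of these genes, and 2.88% were called in opposite directions of either order. The call of IGF1R in the overexpression was lost in 2 of 16 alternatives. IGFBP2 and IGFBP3 were higher in both, as were 1.72% of these genes. With the members chosen when earlier results were known, these calls beside the shares are a description. IGF2R was called after overexpression alone, with log2 fold changes of 0.16 and -0.44, and the difference between the cell lines was not tested. The log2 fold changes of IRS1 (0.15 and -0.47) and GRB10 (0.25 and -0.11) passed in neither comparison. IGFBP4 and IGFBP6 could be tested in DU145 cells only and IGFBP5 in CWR22RV1 cells only, so that their response to the opposite change of GALNT7 was not measured.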

How the data were processed

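RNA was extracted with an RNeasy kit and libraries were made with a TruSeq Stranded mRNA kit. The authors deposited normalised counts (a signal in which the reads of a library were all divided by its size factor) for 59424 genes in 1 table per cell line. The submitters' processing notes name hg38, FastQC, Salmon, DESeq2 and R 3.5.3, without their roles, and the annotation is not given in the sources used here. Whole reads were recovered from the steps of the values, and 100% were whole within 0.001 of a read. The values do not show whether these whole numbers were counted or were rounded estimates, and they are called reads here. Depth was 18364512 to 24356910 reads per library. Replicates differed by more than sampling noise (chi-square per gene 10.2 to 29.2), and each counted as 1 replicate.

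Names, positions and exon lengths came from GENCODE 29 (GRCh38), which held 94.4% of the identifiers, and promoter windows from RefSeq. The tables hold no columns beside the 12 libraries. Each cell line was fitted alone by limma 3.58.1 under R 4.3.3 (lmFit and trended eBayes) after adding a pseudocount of 1 and taking log2 values, keeping genes with a mean of at least 5, with Benjamini-Hochberg adjustment over all genes tested and a threshold of 0.05.

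The members and gene lists were chosen with earlier results of these data known. The text names all members, GALNT7, the ligands, receptors and binding proteins, and up to 6 other pathway genes per comparison (called, mean of at least 50, no overlap of the groups, largest change). STC1, SOCS2 and IRS2 are also given in the overexpression, and STC2 in both, where that rule did not take them. 1 gene of the lists was not analysed here. The values of 1 marker gene are not reported here. Alternatives were pseudocounts of 0.5 and 5, no filter or a mean of at least 20, quantile normalisation, rescaling to the 75th percentile, eBayes without a trend, a replicate block, leaving out each library in turn, edgeR 4.0.16 and DESeq2 1.42.0 on the recovered reads, and, in the knockdown, centring on chromosome medians.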

Additional observations from a re-analysis of the deposited data

How the results depend on the processing

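Of 247 values of 15 member results under the alternatives, 226 kept direction and side of the threshold, 18 lost the call, 3 gained one and 0 changed sign. The members called were 3 to 4 of 7 in the knockdown and 4 to 5 of 8 in the overexpression when 1 library was left out, against 4 and 6 with all libraries. In the overexpression they numbered 4 without OE control replicate 1 or GALNT7 OE replicate 1. The members at issue were IGFBP5 in the knockdown and IGF1R and IGFBP6 in the overexpression. The log2 fold change of GALNT7 was then -1.22 to -1.02 and 1.13 to 1.24. Pathway genes called in the knockdown were 3, but 6 with DESeq2, and 2 to 4 with 1 library left out, and in the overexpression 32 to 36. The number of all genes called also changed between these fits, as given below for the knockdown. It is not given here for the overexpression, so that those counts have no share of all genes beside them. Where a fit left a group with fewer libraries, the spread was pooled over both groups.

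All genes called in the knockdown were 1623, but 1002 with the replicate block, 996 without a trend, 2666 with DESeq2, 1336 without GALNT7 KD replicate 3 and 539 to 1026 without any 1 of the other libraries. The replicate numbers showed no general pairing of the libraries. The correlations of same-numbered deviations over the genes tested were -0.01 to 0.07 in the knockdown and 0.02 to 0.04 in the overexpression. A pairing in part of the genes was not tested. With the replicate block 4 members were called in the knockdown and 5 in the overexpression, where IGFBP6 was lost, and IGF1 was gained in the knockdown. The depth limits members at single reads, namely IGFBP4, IGFBP6 and IGFBP7 in CWR22RV1 and IGFBP5 and IGFBP7 in DU145 cells. The causes of these changes were not tested.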
